A study of Macaca fascicularis with 12 samples.

Results

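The TTLL genes encode the tubulin tyrosine ligase-like enzymes. The family was taken as 9 genes, TTLL1, TTLL3, TTLL4, TTLL5, TTLL6, TTLL7, TTLL9, TTLL11 and TTLL12, and its members on the array were all probe sets whose only gene symbol in the platform annotation was one of these. Of the 9 genes, 6 had such a probe set, with 15 probe sets among the 52766 that were not controls. TTLL3 had 4, TTLL4 and TTLL6 had 3 each, TTLL5 and TTLL11 had 2 each and TTLL12 had 1. TTLL1, TTLL7 and TTLL9 were not analysed here. TTLL6 was singled out because its probe sets were raised in the comparison described below, so TTLL6 was chosen by its BV and mock levels and its difference between them is given as a description, without a test.

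Most TTLL enzymes add chains of glutamate to the tails of tubulin, which mark the microtubules of axons, cilia and centrioles. Work in mouse divides them into enzymes that start a chain, such as TTLL4 and TTLL5, and enzymes that lengthen it, such as TTLL6 and TTLL11, while TTLL3 adds glycine instead. TTLL6 is best known from motile cilia. In mouse, TTLL6 and TTLL4 also add glutamate to the DNA sensor cGAS, and the carboxypeptidase AGBL5 removes the glutamate that TTLL4 adds. TTLL12, an unusual member without known ligase activity on tubulin, was reported in human cells to bind the adaptor MAVS of the RNA-sensing pathway.

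The brain of 3 adult male cynomolgus macaques (Macaca fascicularis) was studied. BV tissue came from the left hemisphere, which received the baculovirus BV-HSVtk in 4 injections into the striatum, each 10 µL with 1e+08 particles. Mock tissue came from matching sites in the right hemisphere of the same animals, which received insect cell (Sf9) medium without virus that had gone through the same purification. Tissue pieces of about 100 mg were taken after 2 days, 2 per hemisphere and 1 array per piece, so that there were 6 BV and 6 mock arrays. Replicates 1 and 2 are the pieces of animal 1, replicates 3 and 4 those of animal 2, and replicates 5 and 6 those of animal 3. Baculoviruses infect insects and enter mammalian cells without replicating, and the vector is named for the thymidine kinase of herpes simplex virus. Because all virus went to the left side, effects of treatment and of hemisphere cannot be told apart. Tissue was bulk, so a change in the number of cells of a type and a change in RNA per cell cannot be told apart either.

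Levels are log2(signal + 3.49) after quantile normalization, and differences are BV minus mock in log2 units with the standard error of a limma fit on the 3 animals. Probe sets of different genes differ in binding strength, so their levels are not compared with each other. The arrays of piece 2 had deposited medians of 25.4 to 32.7, and those of piece 1 had medians of 50.2 to 62.8, so piece was also an array set, balanced over animals and treatment. The ratio of the 3′ to the 5′ actin control was 2.40 on the array of mock replicate 6 and lower on the other arrays, for example 1.16 on the array of mock replicate 5. Genes that mark striatal medium spiny neurons were lower and thalamic genes higher in BV tissue, with median differences of -0.92 over 8 tested genes and 0.86 over 9. None of them passed in limma. At an unadjusted p under 0.05 there were 0 striatal genes and 5 thalamic genes, all higher, where 8.80% of all tested probe sets were under it, 5.15% higher and 3.65% lower. The part of tissue composition and RNA quality in the TTLL values was not tested, beyond leaving out single arrays and animals.

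TTLL6 signal was higher in BV tissue than in mock tissue on every array, by about 6-fold at its brightest probe set. That probe set, MmuSTS.713.1.S1_at, had levels of 8.17, 9.39, 8.44, 8.71, 10.08 and 9.73 in BV replicates 1 to 6, against 5.97, 6.17, 5.69, 6.91, 7.15 and 6.80 in mock replicates 1 to 6. The lowest BV array, replicate 1, was above the highest mock array, replicate 5, and both pieces of animal 3 were the highest in BV tissue. The group means were 9.09 ± 0.76 in BV and 6.45 ± 0.59 in mock (SD, n = 6 arrays of 3 animals), and the difference was 2.64 ± 0.18, a ratio of 6.22. On the deposited linear scale, before normalization, the signal was 307, 544, 363, 335, 1601 and 657 in BV tissue, against 70.6, 50.01, 70.2, 95.2, 169 and 81.8 in mock tissue. The groups did not overlap on that scale either.

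A second probe set, MmuSTS.713.1.S1_x_at, shares its target with the first by its identifier, and the suffix marks probes that may also bind other transcripts. Its levels were 8.08, 9.08, 8.22, 8.58, 9.93 and 9.54 in BV tissue, against 6.12, 6.37, 5.55, 7.11, 7.22 and 6.80 in mock tissue. BV and mock arrays were apart here as well, with a difference of 2.38 ± 0.18. The third, MmugDNA.20634.1.S1_at, has another target by its identifier. It had levels of 7.48, 8.50, 8.04, 7.80, 9.11 and 8.996 in BV tissue, against 5.601, 5.48, 4.42, 6.36, 6.59 and 5.81 in mock tissue. The lowest mock array was again replicate 3, and the difference was 2.61 ± 0.16. Over arrays, with group means removed, the 3 TTLL6 probe sets correlated with each other at r = 0.923 to 0.987 (12 arrays of 3 animals). Probe sequences were not used here, so whether the 3 probe sets measure TTLL6 alone was not tested.

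**Figure D1:**
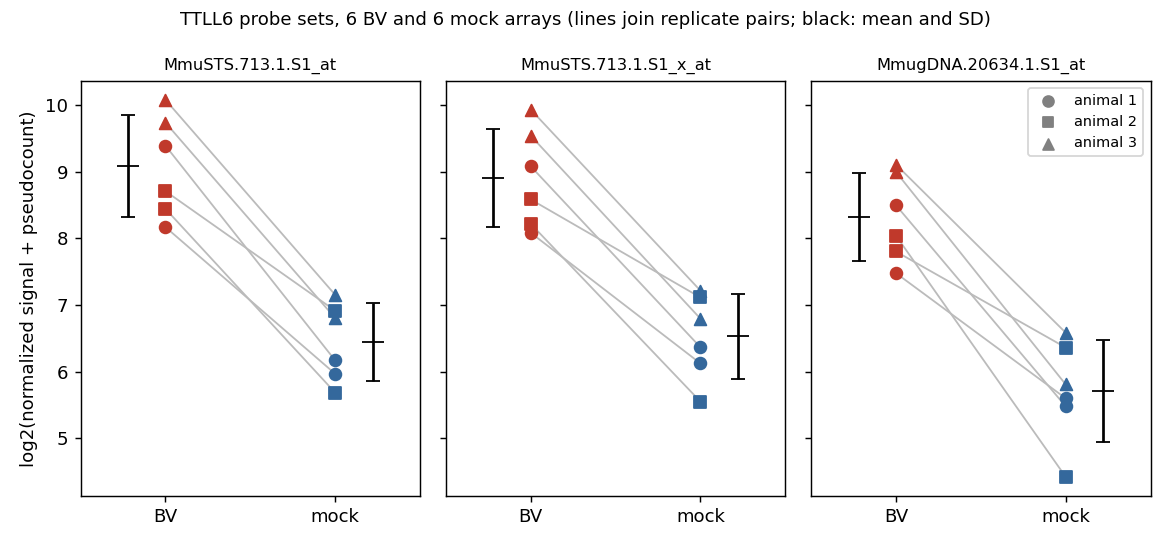
Levels of the 3 TTLL6 probe sets, as log2(normalized signal + pseudocount), on 6 BV and 6 mock arrays; lines join the replicate pairs, symbols mark the 3 animals and black bars give the mean and SD. In each panel the 6 BV arrays lie above the 6 mock arrays.

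TTLL6 stood among the largest differences on the array. All 3 probe sets passed the limma threshold (Benjamini-Hochberg adjusted p under 0.05), where 0.0284% of the 31660 tested probe sets passed, and all 3 had no overlap between the groups, where 0.237% had 6 BV arrays above 6 mock arrays, and were higher in 6 of 6 pairs, where 3.37% were. Since this comparison chose TTLL6, nothing is read from these counts. Only 8 probe sets had a higher difference than the brightest TTLL6 probe set, and 0.0695% of those tested had one at or above the lowest TTLL6 value of 2.38. The count of TTLL6 probe sets past the threshold rested on single arrays: it was 0 without BV replicate 6, without mock replicate 3 or without mock replicate 5, and 2 without BV replicate 2 or 4. It was also 0 without animal 1. The size did not rest on them, since the differences of the 3 probe sets stayed between 2.12 and 2.93 whichever array was left out.

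The other TTLL genes showed no such shift. Their 10 tested probe sets had differences from -0.45 to 0.46 with a median of -0.063, beside a median of -0.021 over all probe sets tested, and 5 were higher and 5 lower. In limma 0 of the 10 passed the threshold, where 0.0284% passed, and 0 had an unadjusted p under 0.05, where 8.80% did. All 10 had groups that overlapped, where 0.136% had 6 BV arrays below 6 mock arrays, and 87.7% of all tested probe sets had a difference no larger in size than 0.46. A further 2 probe sets, 1 each of TTLL3 and TTLL5, were below the intensity filter and were not tested.

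Among the enzymes that start glutamate chains, the brightest TTLL4 probe set, MmugDNA.17625.1.S1_at, had levels of 6.95, 7.19, 7.19, 7.01, 7.29 and 7.14 in BV tissue, against 7.44, 7.19, 7.21, 7.02, 7.48 and 7.28 in mock tissue. The groups overlapped, with a difference of -0.14 ± 0.14. The other TTLL4 probe sets had differences of -0.33 ± 0.16 (MmugDNA.33980.1.S1_at) and 0.25 ± 0.19 (MmugDNA.40528.1.S1_at), in opposite directions. The first of these was lower in BV tissue in 6 of 6 pairs, the only other TTLL probe set with all pairs one way, where 7.75% of tested probe sets had that. TTLL5 had levels of 6.28, 6.43, 6.08, 6.11, 6.42 and 5.95 in BV tissue, against 6.55, 6.30, 6.23, 5.99, 6.01 and 6.19 in mock tissue. These ranges lay almost on top of each other, and the difference was 0.0020 ± 0.14.

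TTLL11, which like TTLL6 lengthens glutamate chains, had levels of 6.90, 6.68, 6.87, 6.64, 6.57 and 6.54 in BV tissue, against 6.88, 6.91, 6.94, 6.56, 7.03 and 6.80 in mock tissue at its brightest probe set. The groups overlapped and the difference was -0.15 ± 0.15, while the second TTLL11 probe set had 0.083 ± 0.22. TTLL3, the glycine-adding member, had levels of 6.94, 6.48, 7.05, 6.44, 7.43 and 6.95 in BV tissue, against 7.05, 6.44, 6.66, 6.66, 7.18 and 7.16 in mock tissue. Here too the groups overlapped, with a difference of 0.023 ± 0.14. A further TTLL3 probe set, MmugDNA.4234.1.S1_s_at, had the highest difference of the family after TTLL6, 0.46 ± 0.27, but its 6 pairs ran from -0.75 to 1.75. Its animal values were 0.69, -0.33 and 1.01. Without animal 2 its difference was 0.85 ± 0.22 and passed the threshold (limma, adjusted p = 0.0391). In that fit 1845 probe sets passed, against 9 in the fit with all animals, so passing was far more common there.

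TTLL12 had the lowest difference of the family. Its levels were 6.92, 7.12, 6.67, 7.43, 7.12 and 7.34 in BV tissue, against 7.17, 7.49, 6.95, 7.30, 8.12 and 8.25 in mock tissue. BV was lower in 5 of 6 pairs, by most in animal 3, where the difference was -0.95, and by little in animal 2, where it was -0.082. The groups overlapped and the difference of -0.45 ± 0.21 did not pass. MAVS, which TTLL12 was reported to bind, had a difference of -0.39 ± 0.15 and was lower in 6 of 6 pairs, with BV levels of 6.13 to 6.53 and mock levels of 6.40 to 7.01, and did not pass either.

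**Figure D2:**
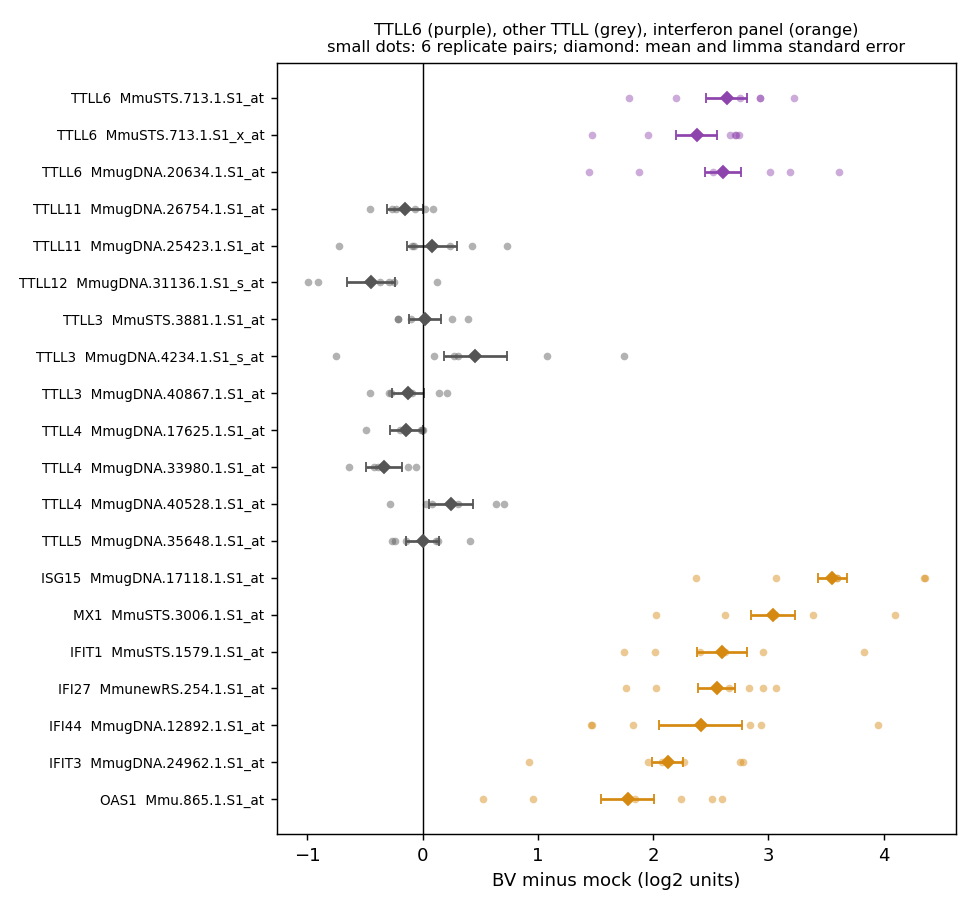
BV minus mock in log2 units for the tested TTLL probe sets and the interferon panel; small dots are the 6 replicate pairs and diamonds the mean with its limma standard error. The TTLL6 pairs lie between 1.44 and 3.62, in the range of the interferon panel, and the other TTLL probe sets lie around 0. TTLL6 was chosen by this difference.

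The TTLL6 difference was also taken in each animal. TTLL6 was chosen from the BV minus mock comparison, whose fit takes its error from the spread over the 3 animals. That choice favours an even difference, so nothing is read from the evenness of the values below. The brightest probe set differed by 2.71, 2.27 and 2.93 in animals 1, 2 and 3, the second by 2.34, 2.07 and 2.73, and the third by 2.45, 2.53 and 2.85. All 3 were largest in animal 3, and 2 of the 3 were smallest in animal 2. The interaction of animal and treatment, tested in limma on the 12 arrays, gave unadjusted p-values of 0.605 to 0.866 for TTLL6 and 0.112 to 0.964 for the other TTLL probe sets, all with an adjusted p of 1.00. Over all probe sets this test passed 0, against 735 at an unadjusted p under 0.05. In data simulated with independent arrays it recovered 81% of changes of 4 log2 units confined to 1 animal and 0% of changes of 2 or 1. The test therefore says little of smaller differences between animals.

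Piece 2 minus piece 1, a contrast balanced over treatment, was 0.37 ± 0.26, 0.39 ± 0.28 and 0.29 ± 0.27 for the 3 TTLL6 probe sets and between -0.37 and 0.33 for the other TTLL probe sets. None passed the threshold in limma (adjusted p of 0.460 to 0.579 for TTLL6), and 0 probe sets passed in all, with 5883 at an unadjusted p under 0.05.

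Whether TTLL6 followed the interferon response was examined next. Type I interferons act through a shared receptor and induce a broad set of antiviral genes together, called interferon-stimulated genes. Of a list of 66 such genes, 47 were tested by their brightest probe set; 43 were higher and 4 lower in BV tissue, 4 passed and 14 had 6 BV arrays above 6 mock arrays, at the same background shares of 0.0284% and 0.237%. Their median difference was 1.27, beside -0.021 over all probe sets. ISG15, a ubiquitin-like protein attached to other proteins, differed by 3.56 ± 0.13, and MX1, a GTPase that blocks many viruses, by 3.04 ± 0.19. The viral RNA binding proteins IFIT1 and IFIT3 differed by 2.597 ± 0.22 and 2.13 ± 0.14, the mitochondrial protein IFI27 by 2.55 ± 0.16 and IFI44 by 2.41 ± 0.36. OAS1, which makes the second messenger that switches on RNase L, differed by 1.78 ± 0.23 at its brightest probe set. Its 4 tested probe sets ran from 0.12 to 2.57. TTLL6 was chosen with its 3 probe sets all raised, so their closeness cannot be compared with this spread. Of these 7 genes ISG15, MX1, IFIT3 and IFI27 passed. TTLL6, at 2.64, lay within the range of this panel, and 3 of the 47 genes had a higher difference than it. Since TTLL6 was chosen by this difference, nothing is read from its place among them.

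From animal to animal, TTLL6 varied less than the median gene of this list. The median of the 47 genes was 1.35 in animal 1, 0.67 in animal 2 and 2.15 in animal 3, and 39 of the 47 were weakest in animal 2. The range of a gene over the 3 animals had a median of 1.18 among the 47. The brightest TTLL6 probe set had a range of 0.654 over the animals and the third 0.407. The 10 listed genes with a difference of at least 2 at their brightest probe set had ranges of 0.351 to 3.87 with a median of 1.10. The range of TTLL6 therefore lay inside theirs, below their median. This difference in spread was not tested, and nothing is read from it, since the fit that chose TTLL6 favours a small spread over animals. IFITM1, also on the list, passed the same fit at a probe set that was not its brightest (MmugDNA.19587.1.S1_at, 1.45 ± 0.098). The 4 listed genes that passed by their brightest probe set had these values in animals 1, 2 and 3. ISG15 had 3.36, 3.60 and 3.71, and MX1 had 3.36, 2.54 and 3.22. IFIT3 had 2.11, 1.85 and 2.41, and IFI27 had 2.36, 2.95 and 2.34.

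**Figure D3:**
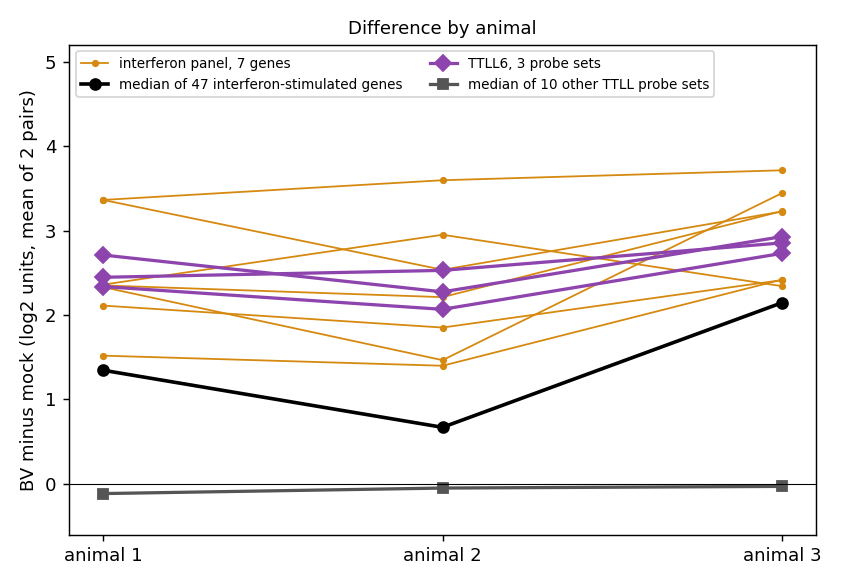
BV minus mock in log2 units in each animal, the mean of 2 replicate pairs, for the 3 TTLL6 probe sets, 7 genes of the interferon panel, the median of 47 interferon-stimulated genes and the median of 10 other TTLL probe sets. The interferon median is lowest in animal 2 and highest in animal 3, TTLL6 stays between 2.07 and 2.93, and the other TTLL median stays near 0.

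TTLL6 also followed the interferon-stimulated genes from array to array. Over the 12 arrays the 3 TTLL6 probe sets correlated with the mean of the 47 genes at r = 0.957, 0.959 and 0.935, but this includes the difference between the groups, by which TTLL6 was chosen. With the group means removed, r was 0.878, 0.870 and 0.782, a measure added after seeing the data. The 47 genes themselves, each of which is part of that mean, had a median r of 0.827, and 19 of them were above the brightest TTLL6 probe set. Of all tested probe sets, 0.919% were above it. The 10 other TTLL probe sets ran from -0.71 to 0.76, and the upper end was the same TTLL3 probe set, MmugDNA.4234.1.S1_s_at. The points are 12 arrays of 3 animals, with 2 pieces each, and share tissue composition and array quality.

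Within the BV arrays alone, TTLL6 and the interferon mean had the same order. BV replicates 1, 3, 4, 2, 6 and 5, in rising order of the interferon mean (7.93, 8.25, 8.65, 8.91, 9.27 and 9.56), were in the same order for the brightest TTLL6 probe set (8.17, 8.44, 8.71, 9.39, 9.73 and 10.08). The r over these 6 arrays was 0.986, 0.986 and 0.941 for the 3 probe sets, and 0.180% of all tested probe sets were above the brightest. Within the 6 mock arrays r was 0.669, 0.685 and 0.651, and 11.7% of all probe sets were above the brightest. The interferon genes had a median r of 0.927 in BV arrays and 0.776 in mock arrays. Mock replicate 6, the array with the high actin ratio, had an interferon mean of 7.08, near the lowest, beside a TTLL6 level of 6.80, the third highest in mock tissue.

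**Figure D4:**
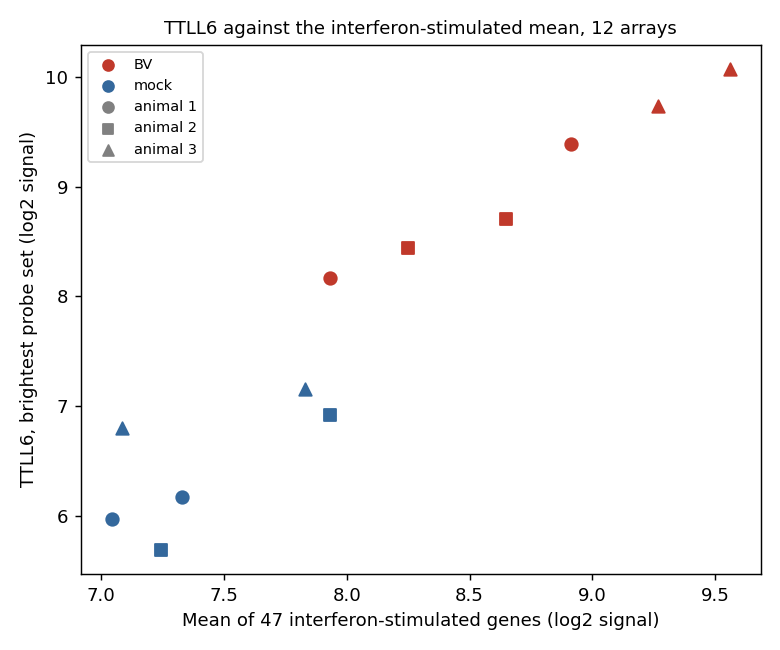
Level of the brightest TTLL6 probe set against the mean level of 47 interferon-stimulated genes on 12 arrays, both in log2 signal, with colours for BV and mock and symbols for the animals. The 6 BV arrays rise together from 7.93 and 8.17 to 9.56 and 10.08, and the mock arrays are more scattered.

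The relation was also taken in each array set and with other means removed. It was 0.960, 0.955 and 0.901 over the 6 piece 1 arrays and 0.954, 0.969 and 0.978 over the 6 piece 2 arrays. Each array set holds both groups, so these values include the difference by which TTLL6 was chosen, and nothing is read from them. With the means of each group and piece removed r was 0.881, 0.885 and 0.789, and with those of each group and animal removed it was 0.921, 0.890 and 0.790. Each group and animal has 2 arrays, so the last measure compares only differences between the pieces of a hemisphere. Piece was also an array set. Over the 6 pair differences the relation was looser, at 0.779, 0.772 and 0.541, where the interferon genes had a median of 0.867 and 30 of the 47 were above the brightest TTLL6 probe set. Of all tested probe sets, 10.7% were above it there.

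**Figure D5:**
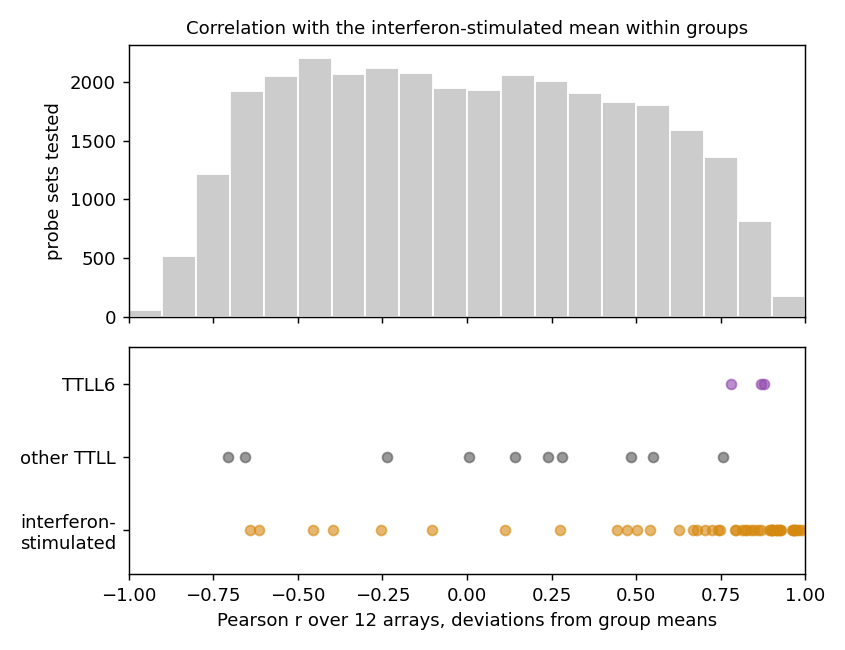
Correlation with the mean of 47 interferon-stimulated genes over 12 arrays after removing group means. The upper panel counts all tested probe sets per bin of r, and the lower panel shows the 3 TTLL6 probe sets (0.782 to 0.878), 10 other TTLL probe sets (-0.71 to 0.76) and the 47 genes themselves.

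The genes most like the brightest TTLL6 probe set over the 12 arrays were mostly on the interferon list, but fewer were once the group means were removed. The list is not a full set of interferon-stimulated genes, so a gene off it may still be one. Among 11142 named genes, the 10 with the highest r were MX2, LGALS3BP, OAS3, ISG15, TRIM25, MX1, IFIH1, IFIT1, CIMAP1B and IFI27, with r from 0.987 to 0.946. Of these, 9 are on the interferon list, which holds 0.422% of the genes. The exception was CIMAP1B, named as a ciliary microtubule associated protein, with levels of 6.23 to 7.92 in BV tissue, against 4.798 to 5.90 in mock tissue, and a difference of 1.56 ± 0.20 that did not pass. OAS3 is there by a probe set with r = 0.968, while its brightest probe set correlated with the interferon mean at 0.089, so the 2 do not measure alike. This likeness again includes the difference between groups that chose TTLL6. With group means removed, 1 of the nearest 10 and 6 of the nearest 50 genes were on the list, against 9 and 25 over the arrays as they are. The nearest were then MX2, STAP1, MTG1, CARINH, RILPL2 and PSMB10, with r from 0.967 to 0.921, of which STAP1 is an adaptor of immune cell signalling and PSMB10 a subunit of the immunoproteasome. STAP1 had a difference of 2.04 ± 0.19 and PSMB10 of 0.63 ± 0.20, neither of which passed.

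Over the 6 pair differences the nearest genes were MX2, STOM, CYBB, APEH, MYORG, ZNF394, MXD4, PLCD3, TBC1D25 and FGR, with r from 0.984 to 0.957. Only MX2 of these is on the list. MX2, a relative of MX1 that restricts retroviruses and herpesviruses, was first over arrays, over pair differences and, at r = 0.967, with group means removed. Its levels were 7.43, 8.37, 7.72, 7.79, 9.01 and 8.50 in BV tissue, against 6.42, 6.20, 6.003, 7.13, 6.97 and 6.76 in mock tissue. The BV arrays were all above the mock arrays, with replicate 5 highest and replicate 1 lowest in BV tissue as for TTLL6, and replicate 3 lowest in mock tissue. The difference of 1.56 ± 0.18 did not pass (limma, adjusted p = 0.173). MX2 also resembled TTLL6 in its own relation to the interferon mean, with r of 0.968 in BV arrays and 0.665 in mock arrays. With 6 points from 3 animals, most of the pair difference list consists of genes with small differences, such as STOM, a membrane scaffold protein, at 0.12 ± 0.18 and CYBB, the phagocyte oxidase subunit, at -0.14 ± 0.19.

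Of the genes that lie beside TTLL6, CALCOCO2 was the only one tested. In the cynomolgus table of genes (assembly T2T-MFA8v1.1), CALCOCO2 and the HOXB genes HOXB13 and HOXB8 were the neighbours that had a probe set, among 3 protein-coding genes on either side. CALCOCO2, an autophagy receptor for bacteria, had levels of 10.10, 9.84, 9.94, 9.81, 11.02 and 10.87 in BV tissue, against 9.75, 9.67, 9.62, 10.17, 9.77 and 8.83 in mock tissue. Only the pieces of animal 3 stood above the mock range at 11.02 and 10.87, where the animal value was 1.64, with 0.26 and -0.018 in animals 1 and 2. Its difference of 0.63 ± 0.32 did not pass, and a second CALCOCO2 probe set had -0.0070 ± 0.24. HOXB13 and HOXB8 were below the intensity filter.

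The cGAS pathway, on which TTLL6 acts in mouse, was measured in part. The cGAS gene, CGAS, was below the intensity filter and was not tested. Its brighter probe set had levels of 2.53, 5.33, 3.17, 3.68, 5.81 and 5.97 in BV tissue, against 2.29, 2.29, 2.49, 4.405, 2.19 and 2.58 in mock tissue. It was above 5 on 3 BV arrays, replicates 2, 5 and 6, and on 0 mock arrays. In the cGAS pathway 5 of 9 listed genes were tested, 3 higher and 2 lower, and 0 passed in limma, with 1 higher and 1 lower at an unadjusted p under 0.05. Over all tested probe sets 0.0284% passed, and 5.15% were higher and 3.65% lower at that unadjusted level. STING1, the adaptor downstream of cGAS, differed by 0.52 ± 0.17 at its brighter probe set and by 0.96 ± 0.28 at its other one, which was higher in 6 of 6 pairs, by 1.78 in animal 3 and by 0.58 and 0.54 in animals 1 and 2. It did not pass either. The kinase TBK1 differed by 0.49 ± 0.20 and the transcription factor IRF3 by 0.29 ± 0.14. The carboxypeptidase AGBL5 differed by -0.085 ± 0.16.

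Of 24 other genes of the tubulin code, which modify tubulin tails or support the enzymes that do, 12 were tested, 5 higher and 7 lower, with a median of -0.12. In limma 0 passed, and 1 was lower at an unadjusted p under 0.05. Over all tested probe sets 0.0284% passed and 8.80% had an unadjusted p under 0.05, with 3.65% lower. The largest differences were 0.80 ± 0.44 for TPGS1, a subunit of the neuronal polyglutamylase complex, and -0.78 ± 0.26 for SVBP, the partner of the vasohibin enzymes that remove tyrosine. TTLL10, a glycine-adding relative not counted among the members, differed by 0.16 ± 0.22. Of 19 tubulin genes 5 were tested and 0 passed in limma, also without adjustment, beside the same shares. Their differences ran from -0.24 ± 0.18 for TUBB1 to 0.25 ± 0.15 for TUBB, with a median of 0.10. No tested gene of these 2 lists, by its brightest probe set, had a difference above 0.80.

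Cells with motile cilia are a known site of TTLL6, and ependymal cells that line the ventricles carry them. Of 37 genes of cilia and ependymal cells, 11 were tested. Of the 11, 7 were higher and 4 lower, and the median was 0.17. In limma 0 passed, and 1 was higher at an unadjusted p under 0.05, near the share of 8.80% over all tested probe sets. Their mean level was 5.44 to 6.35 on BV arrays and 5.43 to 6.03 on mock arrays, so the groups overlapped. FOXJ1, the transcription factor that sets up motile cilia, was at 4.56 to 5.67 in BV tissue, against 4.22 to 5.38 in mock tissue, with a difference of 0.42 ± 0.20, higher in 6 of 6 pairs. Genes of the motile axoneme went both ways, from -0.39 ± 0.47 for RSPH1, of the radial spokes, and -0.33 ± 0.16 for DNAI1, a dynein chain, to 0.59 ± 0.22 for DRC1, of the dynein regulatory complex. With group means removed, the mean of these genes correlated with TTLL6 at r = -0.76. The pan-neuronal list had r = -0.80, the tubulin list -0.77 and the thalamic list -0.70 in the same measure, and over the 6 pair differences r was -0.27 for the cilia list.

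Mean levels of immune cell lists were higher in BV tissue, though not all their genes were. Means of 14 tested microglia and macrophage genes, 5 lymphocyte genes and 6 neutrophil genes were each higher in BV tissue in 6 of 6 pairs, and their median differences were 0.34, 0.55 and 0.95. Of the genes, 11 were higher and 3 lower in the first list, 5 and 0 in the second and 5 and 1 in the third. In limma 0 genes of each list passed. At an unadjusted p under 0.05, where 5.15% of tested probe sets were higher and 3.65% lower, 6, 3 and 3 genes were higher and 1 microglia and macrophage gene was lower. The microglia and macrophage mean was 8.48 to 9.58 on BV arrays and 7.88 to 9.35 on mock arrays. The lymphocyte mean was 5.50 to 6.82 on BV arrays and 5.03 to 5.75 on mock arrays. The neutrophil mean was 5.69 to 7.55 on BV arrays and 5.16 to 7.11 on mock arrays. With group means removed, these means correlated with TTLL6 at r = 0.73, 0.80 and 0.51. The part of these cells in the TTLL6 signal was not tested.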

How the data were processed

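The deposited values are linear intensity per probe set and array. GCOS 1.4.0.036 was used, per the submitters' processing notes, and neither summary algorithm nor scaling target is given in the sources used here. The 12 arrays were quantile normalized and values were taken as log2(intensity + 3.49), with the 10th percentile of all intensities as pseudocount, so differences of dim probe sets are understated. After leaving out 99 control probe sets, tests covered 31660 of 52766, those whose mean reached the 40th percentile (4.95). Symbols were taken from the annotation of a rhesus macaque array, which gave 1 symbol to 24969 probe sets, several to 361, left unnamed here, and none to 27535. Of 14133 symbols, 12584 occur in the Macaca fascicularis gene table. Cynomolgus RNA may bind less well to rhesus probes.

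Both pieces of a hemisphere were averaged, and 3 BV and 3 mock values were fitted in limma 3.58.1 (R 4.3.3) with animal as a block, a variance trend and 2 residual degrees of freedom, two-sided, at a Benjamini-Hochberg adjusted p of 0.05. The labels put both hemispheres in the same animal; their deviations from the group means correlated at r = 0.622, 0.156 and 0.361 in animals 1, 2 and 3. The interaction test used single arrays, so its spread is that between pieces of a hemisphere. On simulated data over 31660 probe sets, the BV minus mock fit recovered 0%, 77% and 97% of changes of 1, 2 and 4 log2 units, and the piece fit 0%, 68.5% and 95.5%. Each simulated array was drawn independently, without the relation between arrays of an animal, so these shares and those of the interaction test are only a rough guide. Precision is limited by the number of arrays and animals.

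The members and all lists were chosen with earlier results of these data known. Genes were named by rule: all members, each TTLL6 probe set in full, an interferon panel, the 10 genes nearest to TTLL6 by r over arrays and over pair differences, the neighbours of TTLL6, the genes of the cGAS pathway and up to 3 genes each of the tubulin lists. FOXJ1, RSPH1, DNAI1, DRC1 and the genes nearest with group means removed were named after their values were seen. RSAD2 and USP18 of the panel were not analysed here, and a further panel gene is not reported here. Correlations are Pearson's r, given without p-values. Alternatives covered the pseudocount, normalization, intensity filter, variance trend, replicate block, piece, single arrays and animals.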

Additional observations from a re-analysis of the deposited data

How the results depend on the processing

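Over 26 alternatives the differences of the 3 TTLL6 probe sets stayed positive, between 2.06 and 2.93 over 78 values. The brightest had 2.29 with a pseudocount of 32, and 2.43 to 2.84 when 1 array was left out. The count of TTLL6 probe sets past the threshold stayed at 3 under 12 alternatives and was 1 or 2 under 6 and 0 under 8. It was 1 with median centring, and 0 without normalization, without the variance trend, with the piece 2 arrays alone, without animal 1 and with no replicate block, and 0 to 3 when 1 array was left out. The count over all probe sets was 1 without normalization, 1 without the trend, 5 without the filter, 4 with no replicate block, 55 with the 6 replicate pairs as a block on single arrays, 38 with a term for piece, 14 for piece 1 alone, 0 for piece 2 alone (1747 at an unadjusted p under 0.05), 0 to 43 when 1 array was left out, and 1, 1845 and 82 without animals 1, 2 and 3. The paired fit on single arrays takes both pieces of an animal as independent. Of 260 values of the other TTLL probe sets, between -0.63 and 0.85, 20 changed sign, and only the TTLL3 probe set MmugDNA.4234.1.S1_s_at passed, without animal 2. Piece 2 minus piece 1 passed at 19894 probe sets without normalization and at 0 with it. The r between the brightest TTLL6 probe set and the interferon mean was also taken over the normalizations and animals left out. It was 0.94 to 0.97 over arrays, 0.73 to 0.93 over pair differences and 0.83 to 0.93 with group means removed. The search of promoters for motifs that had been listed as an alternative was not run. With 2 residual degrees of freedom and no detection calls, changes of about 1 log2 unit, and genes near background such as CGAS, are out of reach.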
